A study of Drosophila melanogaster with 3 samples.

Results

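Insulator proteins bind DNA elements that take part in the folding of chromosomes, and the genes that encode them are themselves loci that a fixed bait site may or may not lie near. The 8 genes described here encode CTCF, su(Hw), BEAF-32, Trl (the GAGA factor), Dref, Cp190, mod(mdg4) and Top2. They were picked by name for their products. No measured value enters the rule, although earlier results of these data were known when the set was drawn up. All 8 were found among the 12271 gene names of the deposited tables that pair 4C peaks with genes. Those tables hold only genes paired with a peak in some array, so the background genes share that condition with the 8.

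Contacts were measured by circular chromosome conformation capture (4C), in which cross-linked chromatin is cut with DpnII, ligated, and amplified outward from a bait by inverse PCR. The material was S2-DRSC, a cultured line of embryonic Drosophila melanogaster cells that the design text calls control cells, with no genotype change or drug in the labels. The baits are 3 insulator binding sites. BaitA lies at 91997 to 92920 of 3R, BaitB at 8485115 to 8485894 of 2L and BaitC at 384440 to 385252 of 3R. Each bait had 1 tiling array, with the 4C product in Cy5 and unligated DpnII-cut genomic DNA, the background of the array, in Cy3.

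The wording "with BaitA" means in the array of that bait. Every level below is a log2 ratio of 4C product over unligated DNA, minus the median of all probes of that array. A level of 0 is therefore the middle probe of the array. With 1 array per bait there is no replicate error, no test between arrays was run, and the number of arrays limits the precision. The spread given is the SD over probes of a window, and where an SE is given it is over consecutive blocks of 250 bp. Adjacent blocks can share a level, as at Trl with BaitA, where bins 375 to 875 bp downstream ran from 0.91 to 0.99. This SE can therefore be too small. Over all 2157868 probes the SD was 2.45 with BaitA and 2.495 with BaitB, but 1.50 with BaitC, so equal log2 values do not stand equally high in the 3 arrays. The place of a gene among the genes of its chromosome arm is given as a percentile for that reason. The file headers show that 1 slide was used for BaitB and later for BaitA, and that BaitC was put on a different slide, as hybridisation 3 of it. In some 250 bp bins BaitA and BaitB nearly coincided, with -3.27 and -3.52 at 2875 bp downstream of the Trl start. BaitC, on the different slide, was low in that bin too, at -2.09. At 2375 bp upstream of Dref BaitA and BaitB were at 3.38 and 3.19, while BaitC was at -2.18. In other bins BaitA and BaitB went apart, with -3.08 and 3.52 at 625 bp upstream of Dref. The part of the shared slide in the like stretches was not tested.

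In flies the DNA-binding insulator proteins recognise different sequences and recruit shared partners. CTCF and su(Hw) are zinc finger proteins, and su(Hw) is best known for binding the insulator of the gypsy retrotransposon. BEAF-32 binds boundary elements close to promoters of housekeeping genes, Dref binds promoters of proliferation genes, and the GAGA factor encoded by Trl binds GA-rich sequences of many promoters. Cp190 and mod(mdg4) are BTB domain proteins that join several insulator complexes, and Top2 is the type II topoisomerase, which passes DNA strands through each other.

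The start site of CTCF stood high with BaitB and that of Cp190 stood low with the same bait, and the other start site levels lay within the central 95% of genes on their arms. Of the 24 levels within 1 kb of the start sites (8 genes in 3 arrays), these 2 were outside that range, or 8.33%, where 5% of genes are outside it by construction. No level within 5 kb of the start sites and none over the transcribed spans was outside it. The median over the 8 genes was 0.41 with BaitA, beside 0.38 over all 12268 genes with at least 5 probes. It was 0.75 with BaitB, beside 0.39 over all genes, and 0.09 with BaitC, beside 0.26 over all genes. The members above the median gene of their arm numbered 3 with BaitA, 4 with BaitB and 2 with BaitC, where 50% of genes are above it by construction.

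Levels at least 1 above the array median were found for CTCF and Top2 with BaitA, where 35.0% of all genes reached that height. They were found for CTCF and Dref with BaitB, against 35.9% of all genes, and for su(Hw) with BaitC, against 17.1%. At least 1 below the array median were 0 members with BaitA, against 19.6% of all genes, 1 with BaitB (Cp190), against 20% of all genes, and 0 with BaitC, against 5.07%. The range from the highest to the lowest member was 2.40 with BaitA, 6.21 with BaitB and 1.83 with BaitC. Ordered by level, neighbouring genes differed by more than 2 combined SE at 1 place with BaitB, between mod(mdg4) and Cp190, and at 1 place with BaitC, between su(Hw) and Trl. No pair of neighbours in the BaitA order did so, and the genes between those places cannot be ranked against the gene next to them. Because adjacent blocks can share a level, the SE can be too small, and these differences are descriptions with no test.

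**Figure D1:**
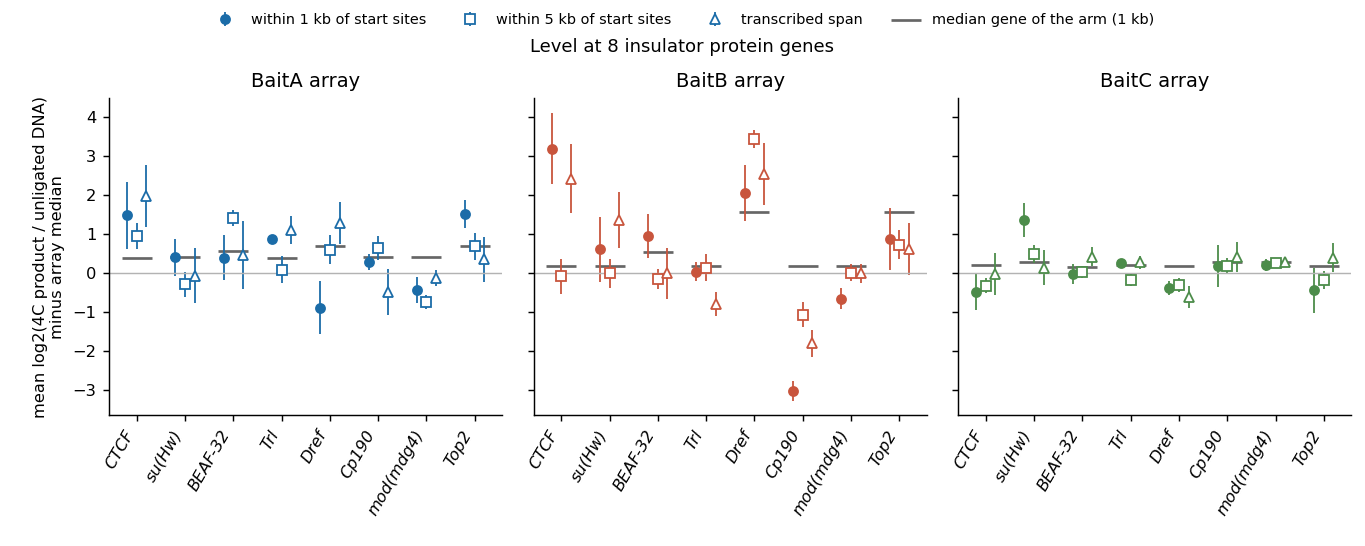
Mean log2 ratio of 4C product over unligated DNA, minus the array median, for the 8 genes in the 3 arrays. Filled circles show probes within 1 kb of the start sites, open squares within 5 kb, open triangles the transcribed span, error bars the SE over 250 bp blocks and grey dashes the median gene of the arm. With BaitB the CTCF circle lies at 3.20 and the Cp190 circle at -3.01, while the 5 kb square of CTCF lies at -0.07.

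CTCF (3L, 7346977 to 7349557, minus strand) encodes the fly counterpart of the vertebrate insulator protein, and its arm holds no bait. Its start site averaged 1.49 ± 2.63 with BaitA, 3.20 ± 2.34 with BaitB and -0.47 ± 1.59 with BaitC (SD over 35 probes). With BaitB the probes ran from -2.64 to 5.69 with a median of 4.06, and 85.7% of them were above the array median. That mean stood at the 99.005th percentile of the other 2413 genes of 3L. The median of those genes was 0.19 with BaitB.

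Beyond the CTCF start site the BaitB level was patchy. The 250 bp bin 2375 bp downstream was at 5.07, and the one 4625 bp downstream was at -3.73. The probes from 1 to 5 kb away averaged -0.88 ± 2.62, so that the whole 5 kb window was at -0.07 and at the 40.3rd percentile. Over the span of the gene the level was 2.42 ± 3.02, at the 92.7th percentile. With BaitA the span averaged 1.99 ± 2.85, at the 87.6th percentile of 3L. Its 5 kb window was at 0.96, the 80.2nd percentile. With BaitC none of the 3 windows was above the array median, and the start site was at the 19.8th percentile.

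su(Hw) (3R, 10130529 to 10133677, minus strand) lies 10.04 Mb from BaitA and 9.75 Mb from BaitC on the same arm. Its start site averaged 0.41 ± 1.97 with BaitA, 0.61 ± 2.76 with BaitB and 1.36 ± 1.51 with BaitC (SD over 36 probes). With BaitC the probes ran from -1.21 to 4.16 with a median of 1.12. This level was at the 89.2nd percentile of 3R genes, and at the 93.5th of the 1501 genes at 50 to 200% of its distance from BaitC. The BaitA and BaitB levels were at the 49.8th and 61.8th percentiles of the arm. Over the span the BaitB array stood highest, with 1.36 ± 2.82 at the 81.2nd percentile. The BaitC array had 0.15 ± 1.81 and the BaitA array -0.06 ± 2.81, at the similar percentiles of 44.4 and 42.9.

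BEAF-32 (2R, 10658090 to 10659912, plus strand) has 2 start sites in the tables, and no bait lies on 2R. Its start sites averaged 0.41 ± 2.02 with BaitA, 0.96 ± 2.22 with BaitB and -0.01 ± 1.11 with BaitC (SD over 51 probes). All 3 levels were between the 41.1st and the 59.6th percentiles of 2R. The sign of the BaitA level depended on the window. It was -0.30 within 1 kb of the 5′-most start site alone, and -0.42 within 500 bp of the start sites. The surroundings differed from the start sites with BaitA. The probes 1 to 5 kb away averaged 1.78 ± 1.35 there, and the 5 kb window was at 1.41, the 87.1st percentile. The BaitB array was at -0.55 ± 1.74 and the BaitC array at 0.04 ± 1.29 over the same probes. The BaitA level over the flanks 5 to 50 kb from the gene was -0.14.

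Trl (3L, 14742774 to 14750195, minus strand) has 9 transcripts that share 1 start site. That start site averaged 0.88 ± 0.40 with BaitA, 0.05 ± 0.71 with BaitB and 0.27 ± 0.48 with BaitC (SD over 35 probes). The 3 levels lay between the 46.7th and the 61.6th percentiles of 3L. The BaitA probes spread little beside the SD of 2.45 over that array: 97.1% of them were above the array median, and none was higher than 1.63. From 1 to 5 kb away the SD over probes was 2.47 with BaitA and 2.59 with BaitB. Over the span the BaitA array averaged 1.12 ± 2.08 and the BaitB array -0.78 ± 1.89, at the 73.4th and the 27.9th percentiles.

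Dref (2L, 9964544 to 9966885, minus strand) is the member nearest to a bait, 1.48 Mb from BaitB. Its level with BaitB was high over the whole neighbourhood. The 5 kb window averaged 3.44 ± 1.78, at the 90.8th percentile of 2L, and the flanks 5 to 50 kb away averaged 3.19 ± 2.22. The start site itself was lower, at 2.06 ± 2.45 over 37 probes. Among the 592 genes at 50 to 200% of its distance from BaitB, whose median was 2.34, the start site was at the 41.6th percentile.

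The other baits lie on 3R, and their arrays gave Dref low start site levels. The BaitA array averaged -0.87 ± 2.01, at the 14.7th percentile of 2L, and the BaitC array -0.37 ± 0.70, at the 22.7th. The BaitA level depended on the window, with 0.60 ± 2.52 within 5 kb and 1.29 ± 1.97 over the span.

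**Figure D2:**
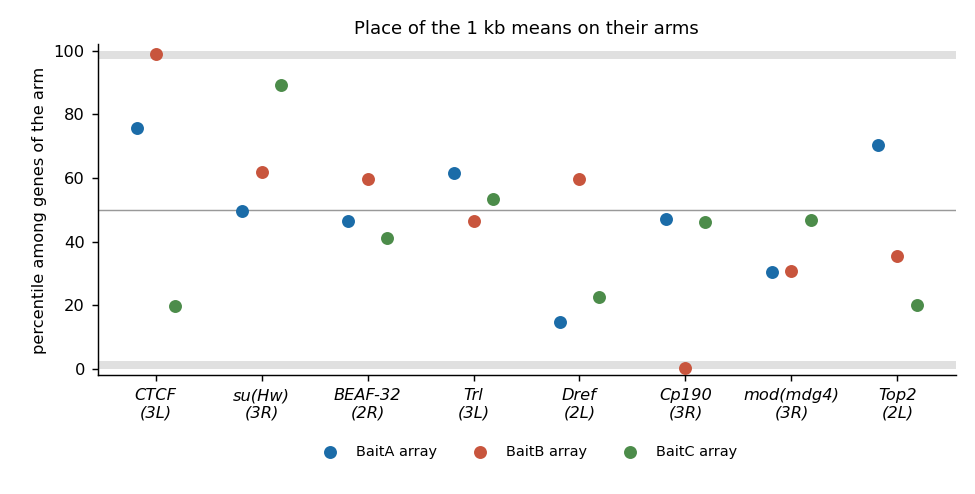
Percentile of the 1 kb start site mean of each gene among the other genes of its arm (given under the name), by array. The grey bands mark the outer 2.5% on each side, and the line marks 50. CTCF at 99.005 and Cp190 at 0.42, both with BaitB, lie in the bands.

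Cp190 (3R, 11096764 to 11100238, minus strand) encodes a partner that several of the DNA-binding proteins recruit. Its start site averaged 0.30 ± 0.85 with BaitA, -3.01 ± 0.84 with BaitB and 0.20 ± 1.59 with BaitC (SD over 36 probes). With BaitB the probes ran from -4.34 to -0.54, so not 1 of the 36 was above the array median. The level was at the 0.42nd percentile of the other 2874 genes of 3R, whose median was 0.18, and at the 0.28th of the 1058 of them with a comparable span. Over the span the BaitB array averaged -1.79 ± 1.52, at the 9.26th percentile. Within 5 kb it averaged -1.06 ± 2.22, at the 7.41st.

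The low BaitB stretch at Cp190 did not extend far. The flanks 5 to 50 kb away averaged 0.30 with BaitB, beside 0.10 with BaitA and 0.02 with BaitC. The BaitA and BaitC start site levels of Cp190 were at the 47.3rd and the 46.1st percentiles of 3R, and at the 53.6th and the 50.2nd among genes at a comparable distance from the bait.

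mod(mdg4) (3R, 17177387 to 17202754, minus strand) is by far the longest member, with 25368 bp and 26 transcripts. It is known for trans-splicing, in which a shared 5′ part is joined to alternative 3′ exons that can lie on either strand. By the tables, 19 transcripts lie on the minus strand alone, and 7 have a further piece on the plus strand. The start of each such piece is listed as a start site, so that 7 of the 8 listed start sites are of this kind. Averaged over all 8, the level was -0.42 ± 2.49 with BaitA, -0.65 ± 2.03 with BaitB and 0.22 ± 1.26 with BaitC (SD over 189 probes). With the shared start site alone it was -0.97, -0.69 and -0.36 with BaitA, BaitB and BaitC.

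Over the whole span of mod(mdg4) the 3 levels were close to the array medians. They were -0.13 ± 2.28 with BaitA, 0.00 ± 2.65 with BaitB and 0.30 ± 1.27 with BaitC, between the 41.2nd and the 52.1st percentiles of 3R. Within the span the pieces differed widely. The part shared by all transcripts (17200781 to 17202754) averaged -1.62 ± 1.27 with BaitB, beside 0.42 ± 2.20 with BaitA and 0.10 ± 1.32 with BaitC.

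Among the 7 plus-strand pieces of mod(mdg4), the one at 17191723 to 17192021 averaged 3.54 ± 3.69 over 6 probes with BaitA, against -1.97 with BaitB. The one at 17193629 to 17193942 averaged 2.80 ± 0.31 over 5 probes with BaitA, and -2.34 and -2.30 with BaitB and BaitC. The one at 17192169 to 17192437, between them, was low in all 3 arrays, with -2.65, -2.67 and -1.04 with BaitA, BaitB and BaitC. BaitA and BaitB share a slide, and the part of that in their like lows was not tested. Each piece named here rests on 5 or 6 probes, which are not independent of each other. The named pieces are the extremes with BaitA. The others lay between -1.14 and 1.34 in that array and between -1.70 and 1.19 with BaitB.

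**Figure D3:**
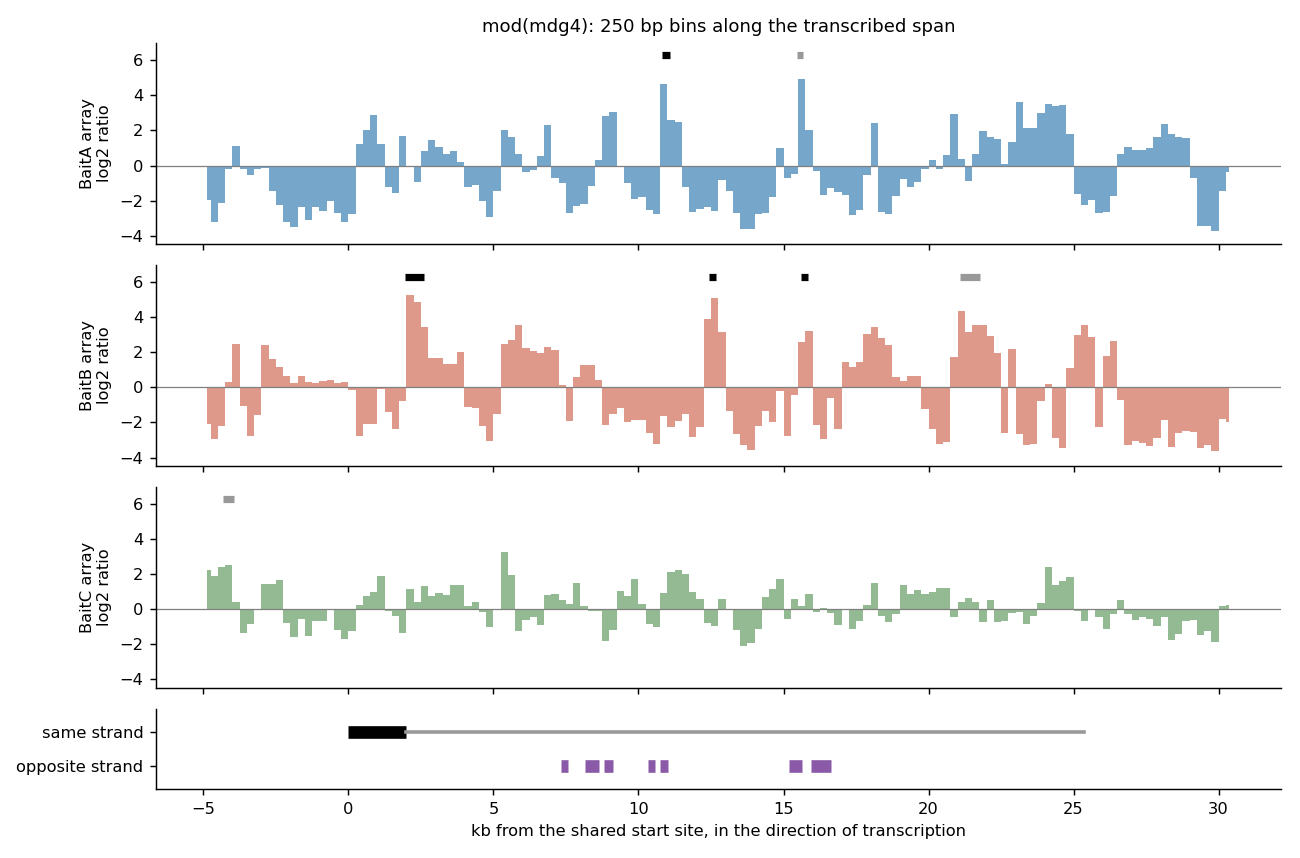
Mean log2 ratio, minus the array median, in 250 bp bins along mod(mdg4) and 5 kb on each side, with 1 panel for each array. Bars above the panels mark peaks, black for a false discovery rate of at most 0.05 and grey for up to 0.2, and the lowest panel shows the part shared by all transcripts (black), the rest of the minus-strand span (grey) and the 7 plus-strand pieces (purple). The 3 black bars of the BaitB panel and the 1 of the BaitA panel lie at different places.

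Top2 (2L, 19447737 to 19452285, minus strand) lies 10.97 Mb from BaitB. Its start site averaged 1.52 ± 1.63 with BaitA, 0.89 ± 2.23 with BaitB and -0.44 ± 1.87 with BaitC (SD over 36 probes). With BaitA the probes ran from -2.29 to 4.43 with a median of 1.35, and the level was at the 70.6th percentile of 2L. The BaitC level was at the 20.1st percentile. The BaitB level was at the 35.5th percentile of 2L, an arm whose median gene was at 1.57 in that array, and at the 49.7th among genes at a comparable distance from BaitB.

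**Figure D4:**
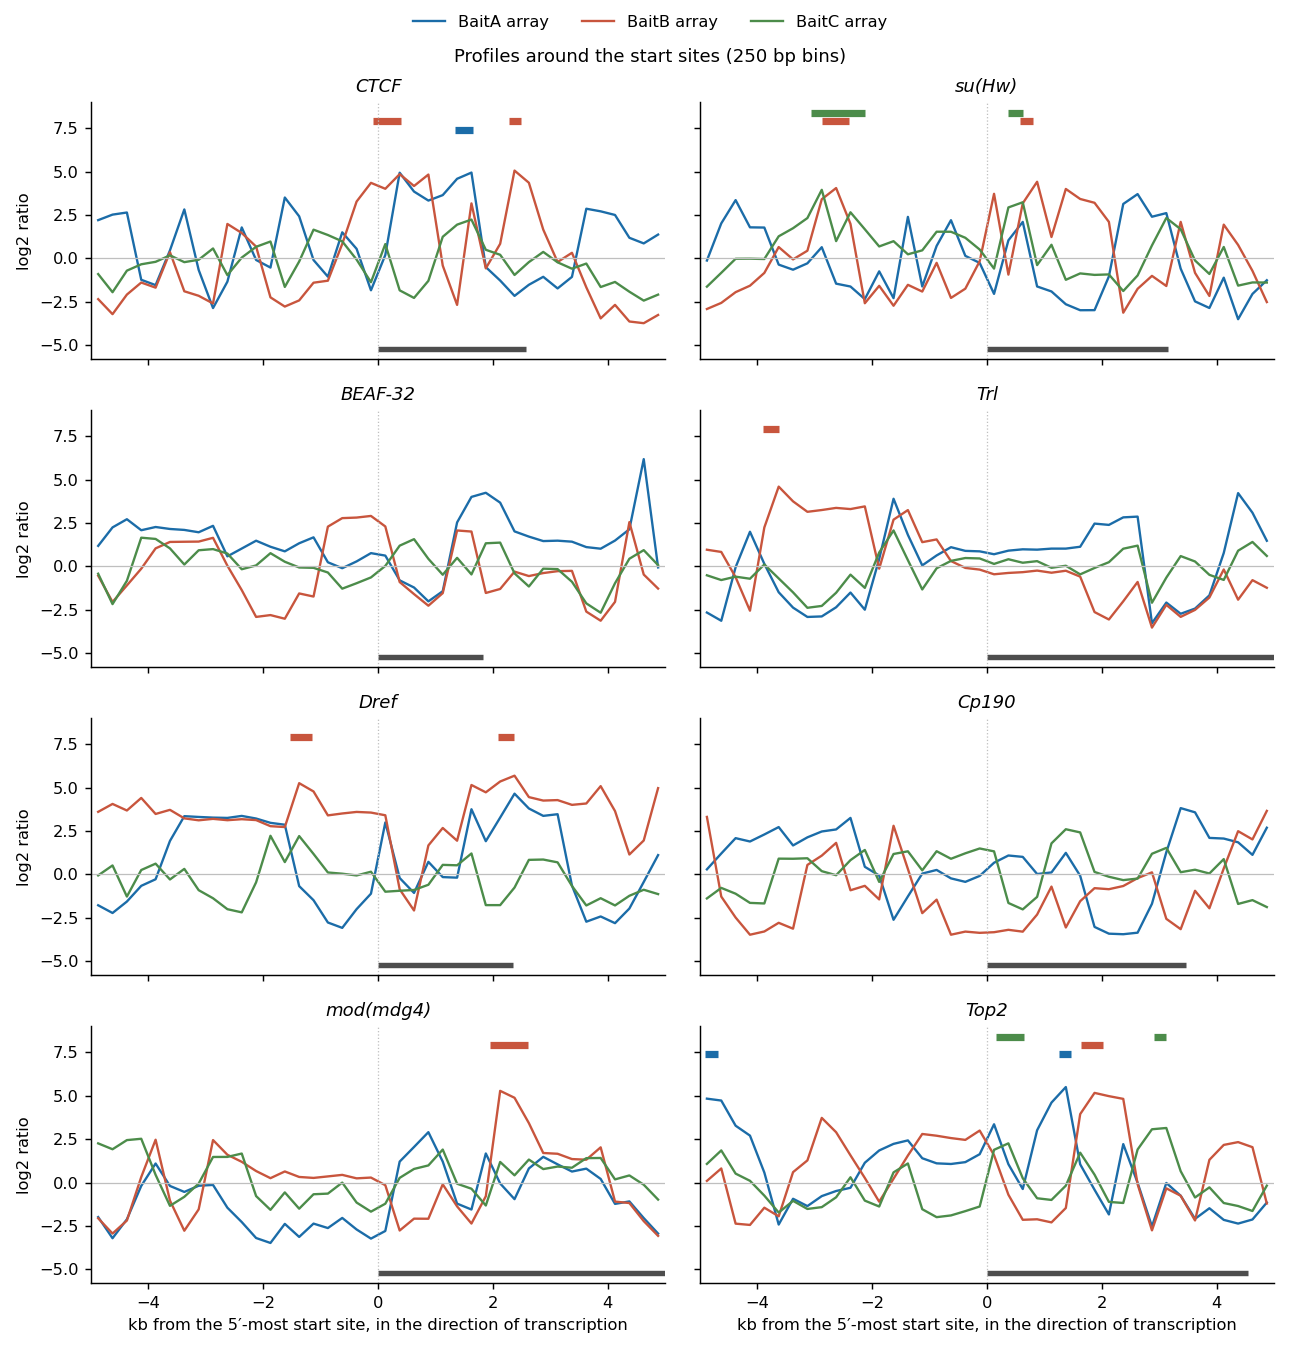
Mean log2 ratio, minus the array median, in 250 bp bins within 5 kb of the 5′-most start site of each gene, for the 3 arrays. Coloured bars at the top mark peaks of a false discovery rate of at most 0.05 in the array of that colour, and the grey bar at the bottom marks the transcribed span. The BaitB line lies above 2 in 34 of 40 bins at Dref, and below -2 in 16 of 40 at Cp190 and in 14 of 40 at CTCF.

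Peaks were read from the authors' deposited tables, which pair a peak with a gene if it overlaps a transcript, lies up to 5000 bp upstream of it or up to 1000 bp downstream. A peak counted at a false discovery rate (FDR) of at most 0.05, as the authors gave it. The members paired with such a peak were 3 of 8 with BaitA, where 31.7% of all genes were. They were 6 of 8 with BaitB, against 37.6% of all genes, and 2 of 8 with BaitC, against 31.1%. These shares over all genes do not hold evenly on each arm. With BaitA, 18.7% of the 3R genes with a span within 2-fold of that of su(Hw) were paired. Of the 2L genes with a span within 2-fold of that of Top2, 42.3% were. The same 2 shares were 35.3% and 38.6% with BaitB, and 28.4% and 29.7% with BaitC. Top2 was paired in all 3 arrays, or 1 member of 8, where 5.47% of all genes were. CTCF and mod(mdg4) were paired with BaitA and BaitB, su(Hw) with BaitB and BaitC, and Trl and Dref with BaitB. BEAF-32 and Cp190 had no such pairing. A peak overlapping the span itself was found for 3 members with BaitA, 5 with BaitB and 2 with BaitC, against 14.8%, 17.7% and 14.4% of all genes. Allowing an FDR of up to 0.2 gave 7, 6 and 5 members, against 70.0%, 71.6% and 59.8%. With an FDR of at most 0.01 there were 0, 1 and 2 members, against 2.97%, 14.9% and 17.2%. Looking 5 kb to either side of the span at an FDR of at most 0.05, a choice made after seeing the data, gave 4, 6 and 2, against 40.0%, 46.9% and 39.5%.

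These pairings came from 19 peaks of 210 to 936 bp, 14 of which overlap the span of the gene. Of the 19, 14 were also paired with a neighbouring gene, so a pairing does not single out the member. The 4 BaitA peaks averaged between 4.97 and 5.73 in their own array, the 11 BaitB peaks between 4.22 and 5.80, and the 4 BaitC peaks between 1.76 and 3.83. Peaks were called for their height, so these are descriptions. The value of the same interval in the other arrays was not used in calling it.

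At CTCF, the BaitB peak over the start site (7349165 to 7349654) averaged 4.51 ± 1.00 over 9 probes, against 1.7 ± 2.74 with BaitA and -0.09 with BaitC. A BaitA peak of FDR 0.058, just above the limit, overlaps it by 156 bp (7349110 to 7349320). Its interval was as high in both arrays, at 5.06 ± 0.43 with BaitA and 4.95 ± 0.27 with BaitB over 4 probes, and low with BaitC at -1.76. These arrays share a slide, and the part of that in this likeness was not tested. The interval is also paired with Sec63, which encodes a protein of the endoplasmic reticulum translocon.

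The other CTCF peaks of FDR at most 0.05 lay inside the span. The BaitB peak at 7347070 to 7347279, near the 3′ end of the span, averaged 5.18 ± 0.30, against -2.46 with BaitA and -1.21 with BaitC. The BaitA peak at 7347900 to 7348224 averaged 4.97 ± 0.27, against 0.15 ± 3.42 with BaitB and 2.11 ± 0.50 with BaitC.

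At su(Hw), peaks of the BaitB and BaitC arrays overlapped at 2 places. Inside the span, the BaitC peak at 10133050 to 10133311 averaged 3.77 ± 0.41 in its own array and the BaitB peak at 10132880 to 10133094 averaged 5.43 ± 0.32, and they overlap by 45 bp. The BaitC interval was at 0.65 ± 2.84 with BaitB and 2.53 ± 2.04 with BaitA. The BaitB interval was at 2.03 ± 1.88 with BaitC and 1.17 ± 1.89 with BaitA, so neither inner interval was evenly high in another array. Upstream, the BaitC peak at 10135795 to 10136730 averaged 2.54 ± 1.29 over 18 probes. It contains the whole BaitB peak at 10136075 to 10136554, which averaged 4.42 ± 0.50 with BaitB and 1.97 ± 1.28 with BaitC. The upstream peaks are 2118 and 2398 bp outside the span, and are also paired with Crz, a neuropeptide gene, and Polr2I, an RNA polymerase II subunit gene. The BaitA array was at -1.03 and -1.21 in these upstream intervals.

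Among all peaks of FDR at most 0.2, 14.9% of those of BaitC overlapped a BaitB peak and 11.8% of those of BaitB overlapped a BaitC peak. Between BaitA and BaitB, the overlapping peaks were 15.2% of the BaitA list and 15.8% of the BaitB list. Lack of overlap with another given array was thus the usual case. The sources used here do not say whether the arrays share their unligated DNA.

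At Dref, the peaks stood on a raised neighbourhood with BaitB. The BaitB peak at 9964519 to 9964793, at the 3′ end of the span, averaged 5.80 ± 0.24, with flanks 1 to 10 kb away at 3.12. The BaitA array was at 4.40 ± 0.37 in that interval, with flanks at -0.25. A BaitA peak of FDR 0.156 overlaps it by 110 bp. BaitA and BaitB share a slide, and the part of that in this likeness was not tested. The upstream BaitB peak at 9968044 to 9968423 averaged 5.34 ± 0.42, against -0.73 with BaitA and 2.09 ± 1.24 with BaitC. A BaitC peak of FDR 0.14 (9968104 to 9968701) overlaps it by 320 bp. Both BaitB peaks are also paired with RpL13, a ribosomal protein gene.

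At mod(mdg4), the peak with the highest score began at the inner edge of the part shared by all transcripts and lay mostly beyond it. This BaitB peak (17200153 to 17200802) averaged 5.09 ± 0.94 over 12 probes, against -0.62 with BaitA and 0.66 with BaitC. Its score ranked 47 of 1872 BaitB peaks on 3R with an FDR of at most 0.2, and it is also paired with tin, a homeobox gene of heart development. The BaitB peak at 17190088 to 17190315 averaged 5.23 ± 0.38, against -2.64 with BaitA. The BaitA peak at 17191683 to 17191947, over a plus-strand piece, averaged 5.72 ± 0.64, against -2.04 with BaitB. The BaitB peak at 17186898 to 17187162 averaged 4.79 ± 0.40 in its own array and 4.05 ± 1.22 with BaitA, and a BaitA peak of FDR 0.058 overlaps it by 90 bp. BaitA and BaitB share a slide, and the part of that here was not tested. Of the 162 genes of 3R with a span within 2-fold of that of mod(mdg4), 28.4% were paired with BaitA, 45.1% with BaitB and 42.0% with BaitC. Among the 1143 genes of 3R with a span within 2-fold of that of su(Hw), a shorter gene, these shares were 18.7%, 35.3% and 28.4%. The part of gene length in the pairings of mod(mdg4) was not tested.

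At Top2, peaks of all 3 arrays lay inside the span, and none overlapped a peak of another array, as was usual among all peaks. The BaitA peak at 19450820 to 19451029 averaged 5.73 ± 0.55, against -1.30 with BaitB and 0.14 with BaitC. The BaitB peak at 19450265 to 19450651 averaged 5.29 ± 1.02, against 0.01 with BaitA and 0.88 with BaitC. The BaitC peak at 19449160 to 19449375 averaged 3.83 ± 0.33, against -1.31 with BaitA and -1.51 with BaitB. A second BaitC peak, at 19451645 to 19452119, averaged 1.76 ± 1.93. A second BaitA peak, 4685 bp upstream at 19456970 to 19457193 and also paired with CG10026, averaged 5.29 ± 0.22 in its own array. It was above the array median with the other baits too, at 1.78 ± 1.69 with BaitB and 1.88 ± 0.93 with BaitC.

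At an FDR of at most 0.05, Trl was paired only through a BaitB peak 3620 bp upstream of it (14753815 to 14754096), which averaged 4.22 ± 2.15 and was paired also with Mgat4a and Tsen34. Another BaitB peak, 3880 bp beyond the 3′ end of Trl (14738695 to 14738894), averaged 5.65 ± 0.34 and was paired with ome in the tables. BEAF-32 had a BaitA peak of FDR 0.156 across the end of its span (10659449 to 10660327), with 3.82 ± 0.94, and another BaitA peak outside the pairing distance. The outer one lies 2722 bp beyond the 3′ end (2R, 10662634 to 10662843), is paired with kn, a gene of blood cell and neuron development, and averaged 6.19 ± 0.79 over 4 probes, against -0.47 with BaitB and 0.94 with BaitC. Cp190 had no peak of FDR at most 0.05 within 5 kb. Its nearest were a BaitC peak inside the span (11098628 to 11099212, FDR 0.066), with 2.64 ± 0.65, and a BaitB peak 1502 bp beyond the 3′ end (FDR 0.069), with 4.75 ± 0.22.

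Genes with the most similar pattern were sought by the Euclidean distance between start site levels over the 3 arrays, outside 100 kb of the member. The closest were GluRIIB for CTCF (distance 0.15), CG3532 for su(Hw) (0.099), lbk for BEAF-32 (0.11), CG8160 for Trl (0.065), CG9016 for Dref (0.12), CG15411 for Cp190 (0.20), Ddrgk1 for mod(mdg4) (0.12) and TyrRS-m for Top2 (0.087). With 12196 to 12239 candidates and 3 values each, near matches are common. Within a distance of 0.5 there were 5 genes for Cp190 and 24 for CTCF, and between 61 and 190 for each of the other 6.

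Other genes of chromosome architecture, 29 in a list of insulator partners, further boundary factors, cohesin, condensin and nucleoporins, gave shares near the background. Of these, 28 were found, some of them under a name other than the listed ones. Pairings at an FDR of up to 0.05 were found for 10 with BaitA, 11 with BaitB and 9 with BaitC, or 35.7%, 39.3% and 32.1%, against 31.7%, 37.6% and 31.1% of all genes. Their median start site level was 0.10, 0.17 and 0.35 with BaitA, BaitB and BaitC, and 14, 14 and 16 of them were above the median gene of their arm.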

How the data were processed

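Peak calling, per the file headers, used NimbleScan array by array and estimated false peaks from shuffled values. The deposited values per probe are log ratios taken as log2. No source used here states the base or how the authors centred them. The deposited FDR is used like a q-value, and the deposited peak score is likewise taken as log2. Array medians of -0.16, -0.14 and -0.02 (BaitA, BaitB, BaitC) were subtracted. Probes were placed by the position in their identifier, and averaged per gene over windows with at least 5 probes, with Python 3.11.15 and numpy 2.4.6. Tested on simulated data with independent noise for each probe, 1 kb means of 194 genes with planted shifts gave averages within 0.173 of each shift. Real neighbouring probes are not independent, so this checks the averaging and not the precision of a single gene. Coordinates are those of the files, whose arm lengths are those of Release 5. A RefSeq table of Release 6 gave names alone, matching 16169 of 17767 accessions. The labels name 1 sample per bait, so nothing was tested between groups and each result is a description. All 8 members are named. Other architectural genes could be named if paired with a peak or at least 1 from the array median, and of these only those outside the central 95% of their arm are, a narrowing made after the values were seen, and for each member the 1 most alike gene with at least 20 probes is named. The members and lists were chosen with earlier results of these data known, although the rule for the members uses no measured value. A ratio to genomic DNA is not a contact frequency.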

Additional observations from a re-analysis of the deposited data

How the results depend on the processing

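Of 192 single gene levels under 8 alternatives, 138 moved by no more than the SE over 250 bp blocks, 53 moved by more, and 1 of those at least 1 from the array median changed sign: CTCF with BaitB, at 3.20 within 1 kb, was at -0.074 within 5 kb; the cause was not tested. The BaitB median over the 8 genes was 0.0079 within 5 kb, where the 1 kb window gave 0.75. Members above the median gene of their arm numbered 5 with BaitA against genes at a comparable distance, where the whole arm gave 3. In each array only members on the arm of the bait were placed by distance, and the others kept their whole arm. With BaitB they were 2 within 5 kb and 2 within 500 bp, where 1 kb gave 4. With BaitC they were 5 over the span, 5 within 500 bp, 4 by the median of the probes and 4 at a comparable distance, where the main setting gave 2. Members paired with a peak at FDR at most 0.01 were 0 with BaitA, 1 with BaitB and 2 with BaitC, against 2.97%, 14.9% and 17.2% of all genes. At FDR at most 0.2 they were 7 with BaitA and 5 with BaitC, against 70.0% and 59.8%. With 8 members a change of 2 genes can move these counts past 1.5 times. Counting peaks within 5 kb on either side of the span, an alternative chosen after seeing the data, gave 4, 6 and 2 members with BaitA, BaitB and BaitC, against 40.0%, 46.9% and 39.5% of all genes. No paired analysis was possible because each bait has 1 array. Centring choices changed the sign of no level that was at least 1 from the array median.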

Other observations

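Of the 84 start site levels of the wider architectural list (28 genes in 3 arrays), 5 lay outside the central 95% of their arm, or 5.95%, where 5% of genes do by construction. The start site of pho, which encodes a Polycomb recruiter, averaged 4.03 ± 1.05 with BaitA, above all other 79 genes of chromosome 4. It was at 2.41 ± 0.91 with BaitB, the 96.2nd percentile, and at -0.12 with BaitC, the 16.5th. Clamp, which encodes a factor of dosage compensation, averaged -2.53 ± 1.19 with BaitA, at the 0.39th percentile of 2L, and -1.49 ± 1.29 with BaitC, at the 0.92nd. With BaitB, which lies on 2L, it was at 2.09 ± 0.78, the 60.5th percentile. ZIPIC, a zinc finger partner of Cp190, averaged 2.15 ± 2.24 with BaitC, at the 97.53rd percentile of 3R. Cap-D3, a condensin subunit gene, averaged -1.31 ± 1.74 with BaitC, at the 2.01st percentile of 2L, and 2.72 ± 0.71 with BaitA, at the 91.6th. These 4 genes were named after their values were seen, and the values are descriptions with no test.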
